A study of Mus musculus with 4 samples.

Results

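The nuclear-encoded genes of oxidative phosphorylation were followed in CD11b-selected cells of the mouse brain. They were chosen by symbol and a minimum count, with earlier results of these data known. The symbols are those that begin with Ndufa, Ndufb, Ndufc, Ndufs or Ndufv and a number, with Uqcr, with Cox and a number of 4 to 8, or with Atp5, together with Sdha, Sdhb, Sdhc and Sdhd. Of 85 matching symbols, Cox7b2 and Cox8c were left out for holding under 50 UMIs over all libraries (10 and 0 UMIs), and Ndufb1-ps for its name. This left 82 of 32285 genes: 35 in complex I, 4 in complex II, 8 in complex III, 18 in complex IV and 17 in complex V. Ndufa4 and Ndufa4l2 were counted with complex IV, where the Ndufa4 protein is now placed. Ndufab1, Cyc1 and Atpif1 belong to the system but are not matched by these patterns, and they are given with the related genes.

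In oxidative phosphorylation, electrons from NADH enter at complex I and those from succinate at complex II, pass through complex III and are handed to oxygen at complex IV. The proton gradient that complexes I, III and IV build drives complex V, the ATP synthase. Most subunits are encoded in the nucleus and imported, while the core membrane subunits of complexes I, III, IV and V are encoded in the mitochondrial genome (the mt- genes), so the enzymes are built from products of both genomes. Resting microglia are known to use oxidative phosphorylation, and activated macrophages can shift the balance towards glycolysis.

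The study compared IL-6 KO (-/-) and WT (+/+) mice, 8 to 12 weeks old, after cerebrovascular injury (CVI, by pulsed ultrasound with circulating microspheres under a thinned skull) or sham surgery, with 1 mouse and 1 library per group. The 4 libraries are the injured KO, the sham KO, the injured WT and the sham WT library, taken at day 6. One label places the sham mice at 6 days after surgery and another calls the controls uninjured, and whether the mild or the severe injury was used is not given. CD11b-positive cells were bead-selected from a 4 mm punch of brain and read with 10x 3′ v3 chemistry, which gives 1 UMI per captured RNA molecule whatever its length. What these groups model is limited by that selection, by single animals and by an Il6 allele that 3′ counts do not check: Il6 itself was counted at 20.4 CPM in injured KO, 23.1 in sham KO, 5.78 in injured WT and 11.1 in sham WT microglia-gated cells. The KO libraries are therefore libraries labelled KO throughout.

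The matrices held 4202 barcodes and 28560667 UMIs in the injured KO library, 2682 and 16218958 in the sham KO, 4731 and 40336067 in the injured WT, and 4425 and 15222380 in the sham WT library. The sham WT library stood apart: 65.4% of its barcodes with enough genes and UMIs exceeded the limit of 10% mt- UMIs, against 16.0% to 32.2% in the other libraries. After that limit and a doublet filter, 2540, 1381, 2879 and 979 cells remained in the injured KO, sham KO, injured WT and sham WT libraries, and each was given a class by marker genes. Microglia-gated cells numbered 2216, 1201, 2096 and 787 in that order, all 10 microglia markers were detected in each library, and 61, 27, 124 and 43 of these cells lay near the gate's limit. The gated cell held a median of 2 markers of its best other class in all 4 libraries. Sham KO and sham WT shared 135 barcodes, with a median of 1192 UMIs in sham KO and 26467 in sham WT, whereas other pairs of libraries shared 2 to 14. Barcodes shared with any other library numbered 63 among the microglia-gated cells of sham KO and 80 among those of sham WT. In injured KO and injured WT such cells numbered 6 and 13. The leading values are also given without the shared barcodes of all 4 libraries.

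Microglia-gated cells of the injured libraries held more nuclear oxidative phosphorylation RNA than those of sham, and the gap was wider in the WT pair. The summed level of the 82 genes was 12495 CPM (counts-per-million, the UMIs scaled to the total of the same cells) in injured KO and 11077 CPM in sham KO microglia, a ratio of 1.13 (1.12 to 1.14). It was 14296 CPM in injured WT and 10337 CPM in sham WT microglia, a ratio of 1.38 (1.37 to 1.39). These and all further intervals are exact 95% intervals that cover counting error only. With 1 mouse a group there is no replicate check and no test, and an effect of injury, of genotype label and of the single library cannot be told apart. Injured KO stood below injured WT, with a ratio of 0.874 (0.870 to 0.878), and sham KO above sham WT, with a ratio of 1.07 (1.06 to 1.08). All levels are shares of the RNA counted in the same cells, so more of these transcripts and less of others cannot be told apart.

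The same order appeared in the median cell. Nuclear oxidative phosphorylation genes took a median of 1.19% of a cell's UMIs in injured KO and 1.11% in sham KO microglia. In injured WT microglia they took 1.33%, against 1.02% in sham WT. The 25th to 75th percentiles of the cells ran over 1.00% to 1.40% in injured KO, 0.946% to 1.30% in sham KO, 1.14% to 1.55% in injured WT and 0.852% to 1.20% in sham WT, so single cells overlapped widely between all libraries. Across cells of 1 library, this share went with the share of cytosolic ribosomal protein RNA (Spearman rho 0.52 in injured KO, 0.62 in sham KO, 0.20 in injured WT, 0.73 in sham WT) and hardly with the mt- share (0.03, -0.02, -0.05 and 0.12). With the glycolysis share rho was 0.33, 0.19, 0.43 and 0.22 in the same order, and with a cell's total UMIs 0.17, -0.03, 0.38 and 0.03. In injured WT both were above the rho with ribosomal protein RNA. The shares come from the same UMIs of the same cell.

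Each complex had a higher summed level after injury in both pairs, though a sum is weighted towards its most abundant members. In complex IV of the KO pair, 7 of the 13 members counted gene by gene below lay above a log2 ratio of 0 and 6 below. Over all genes in that pair, 1729 of 6162 lay above 0. In the KO pair, the summed level of injured over sham was 1.07 (1.05 to 1.08) for complex I, 1.05 (1.01 to 1.09) for complex II, 1.12 (1.09 to 1.14) for complex III, 1.18 (1.16 to 1.19) for complex IV and 1.15 (1.14 to 1.17) for complex V. In the WT pair it was 1.34 (1.32 to 1.35) for complex I, 1.38 (1.34 to 1.41) for complex III, 1.43 (1.41 to 1.45) for complex IV and 1.40 (1.38 to 1.42) for complex V. For complex II, with 356 CPM in injured WT and 285 CPM in sham WT, the interval was 1.20 to 1.31. By these sums complex IV had the highest ratio and complex II the lowest in both pairs. This order did not hold gene by gene. The median log2 ratio of the tested members was 0.05 for complex IV and 0.10 for complex II in the KO pair. In the WT pair these medians were 0.38 and 0.41. Injured KO relative to injured WT was at 0.853 to 0.885 in complexes I, III, IV and V and at 0.967 (0.938 to 0.997) in complex II. Sham KO relative to sham WT was also highest in complex II, at 1.15, against 1.05 to 1.09 in the other complexes.

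**Figure D1:**
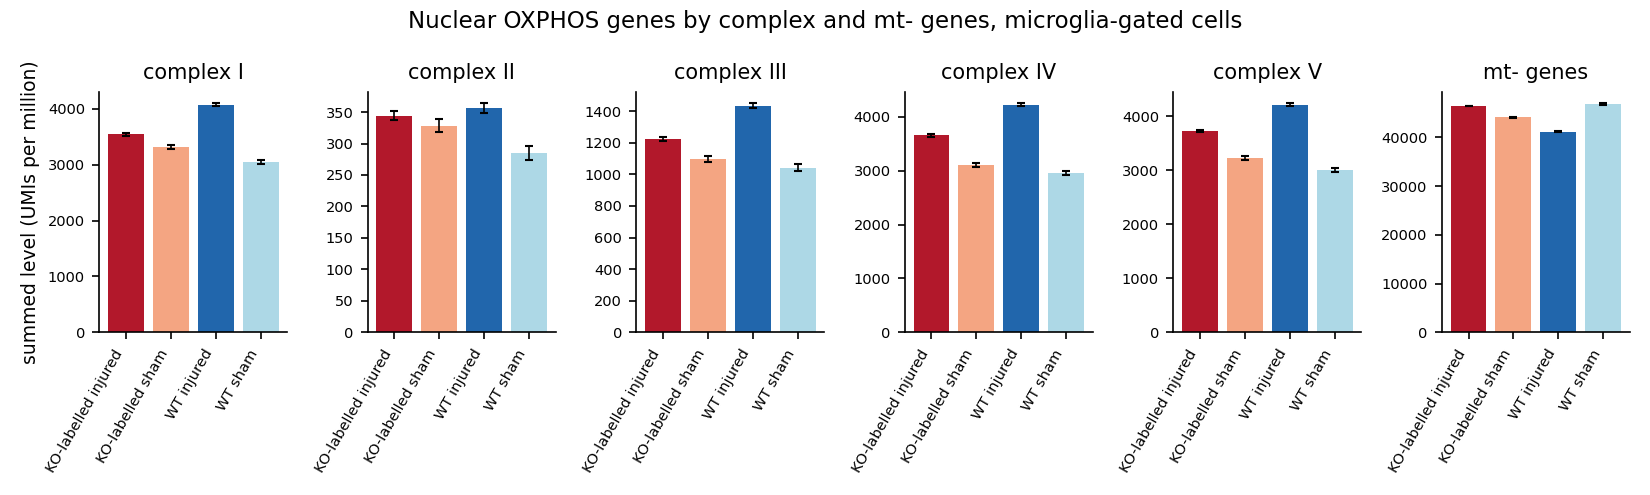
Summed level, in CPM, of the nuclear genes of complexes I to V and of the 13 mt- protein-coding genes in microglia-gated cells of the 4 libraries; bars are single libraries and error bars exact 95% Poisson intervals. Each nuclear complex is higher in the injured than in the sham library of both pairs and highest in injured WT (complex IV at 4220 CPM), while the mt- genes are lowest there (41224 CPM).

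Counted gene by gene, the picture differed between the pairs. The 77 members that reached 20 CPM in either library of a pair were counted, and on the log2 scale with 10 CPM added 3 were at least 1.5-fold higher in injured KO than in sham KO and 1 was lower, where 5.73% of all 6162 genes tested were higher and 13.1% lower. In the WT pair 15 were at least 1.5-fold higher in injured than in sham and 0 lower, where 8.77% of all 6291 genes were higher and 31.7% lower. The median log2 ratio of the members was 0.08 in the KO pair, beside -0.22 over all genes, and 0.38 in the WT pair, beside -0.32 over all genes. Of the 77, 46 lay above 0 in both pairs, 28 above 0 in the WT pair only, and 3 below 0 in both. Over all genes, 1729 of 6162 lay above 0 in the KO pair and 1917 of 6291 in the WT pair. The log2 ratio was larger in the WT pair for 75 of 77 members (97.4%), the exceptions being Cox7a2l and Cox6a2, against 36.1% of 5991 genes tested in both pairs. The intervals of both ratios did not overlap for 58 members with the WT ratio above (75.3%, against 11.5% of all genes) and for 1 member with the WT ratio below (1.30%, against 32.5%). Between the sham libraries 0 of 76 members were at least 1.5-fold higher or lower in KO, where 0.178% of 6191 genes were higher and 1.05% lower. At a looser threshold, a ratio of 5 to 4, 16 members were higher and 5 lower in the KO pair (10.9% and 37.4% of all genes) and 43 higher and 0 lower in the WT pair (16.2% and 49.8%). In injured KO over injured WT the counts were 0 and 18 (10.4% and 5.49%), and between the sham libraries 1 and 0 (1.74% and 5.91%). At a 2-fold threshold 1 member, Cox6a2, was higher in each pair (2.66% of all genes in the KO pair and 4.05% in the WT pair). Cox6a2 reached 20 CPM only in the injured libraries. At the same threshold 0 members were higher or lower between the injured libraries (0.129% and 0.884%) or the sham libraries (0.0646% and 0.355%). The count of 15 was 7 when each cell weighed the same, 6 without the mt- limit, 9 with sham KO in place of sham WT and 70 after median-of-ratios scaling, which moved the median of all genes to 0.19. The direction of the summed level held in both pairs under each of these.

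**Figure D2:**
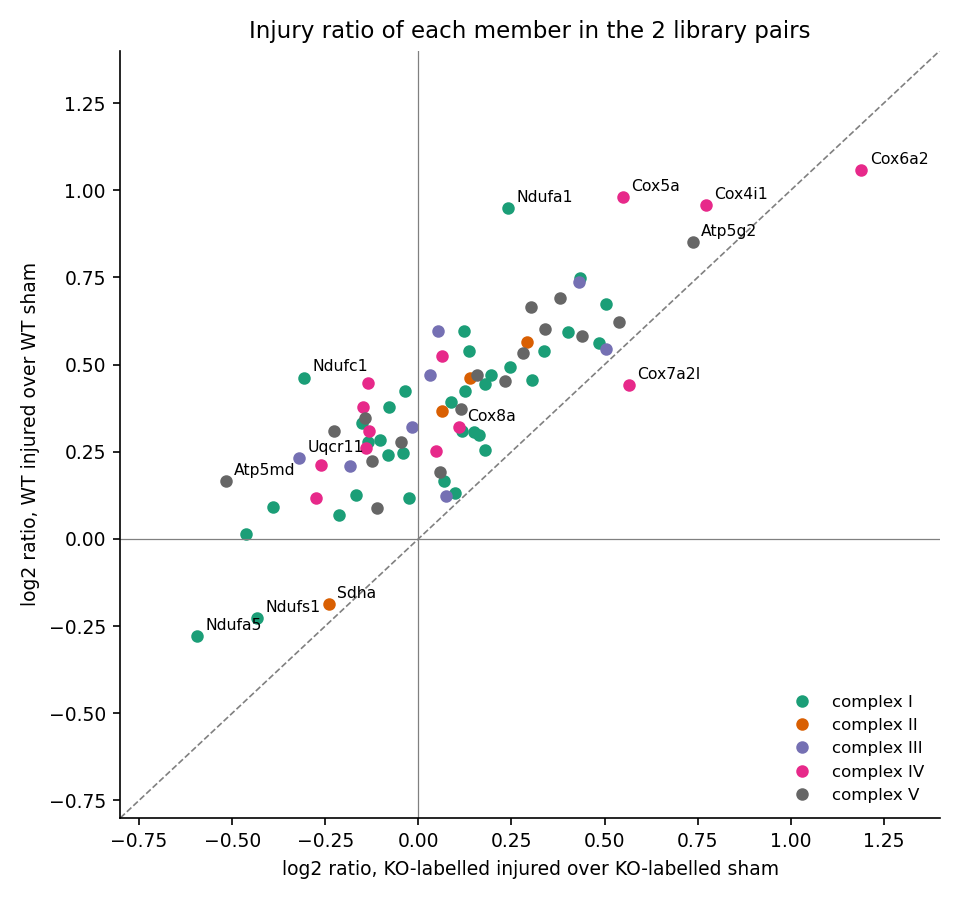
Log2 ratio of injured over sham for each of 77 members in microglia-gated cells, in the KO pair (horizontal) and the WT pair (vertical); points are genes coloured by complex and the dashed line marks equal ratios. Nearly all points lie above the dashed line, Cox7a2l (0.56 in the KO pair and 0.44 in the WT pair) and Cox6a2 (1.19 and 1.06) lie below it, and Ndufa5, Ndufs1 and Sdha lie below 0 on both axes.

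In complex I, the NADH dehydrogenase, the most abundant transcripts were those of the accessory subunits Ndufc2 and Ndufa13. Ndufc2 was counted at 210 CPM in injured KO, 191 in sham KO, 231 in injured WT and 170 in sham WT microglia. Ndufa13, also known as Grim19, was at 192, 180, 224 and 169 CPM in the same order. Injured WT was the highest library for both.

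The largest ratio of complex I in the WT pair belonged to Ndufa1, an X-linked accessory subunit needed for complex I assembly (GRCm38 chromosome X, 37187588 to 37191163, minus strand). Ndufa1 was at 99.2 CPM in injured KO, 82.3 in sham KO, 161 in injured WT and 78.7 in sham WT microglia. The injured WT library alone stood out, with a ratio over sham WT of 2.05 (1.89 to 2.22), while injured over sham in the KO pair was 1.20 (1.12 to 1.30). Injured KO over injured WT was 0.615 (0.584 to 0.648), the only member at least 1.5-fold lower in that comparison, where 1.51% of 5430 genes were higher and 2.17% lower. The same gap was present in monocyte-derived macrophage-gated cells, with 95.8 CPM in injured KO and 152 CPM in injured WT.

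Further accessory subunits of the membrane arm followed with smaller gaps. Ndufb8 was at 162 CPM in injured KO, 117 in sham KO, 182 in injured WT and 104 in sham WT microglia, giving 1.38 (1.30 to 1.47) in the KO pair and 1.75 (1.63 to 1.88) in the WT pair. Ndufb9 was at 173, 119, 182 and 110 CPM in the same order, the highest ratio of complex I in the KO pair at 1.45 (1.37 to 1.55). Ndufb5 was at 163, 114, 172 and 113 CPM, with 1.43 (1.35 to 1.53) in the KO pair and 1.52 (1.42 to 1.63) in the WT pair. For these 3 genes both injured libraries lay above both sham libraries.

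A few complex I genes went the other way. Ndufa5, an accessory subunit of the peripheral arm, was at 36.8 CPM in injured KO and 60.7 in sham KO, a ratio of 0.607 (0.548 to 0.672), and was the member counted above as lower in the KO pair. It was at 46.0 CPM in injured WT and 57.9 in sham WT, a ratio of 0.794 (0.715 to 0.882). Ndufs1, the large iron-sulphur core subunit through which electrons pass, was at 28.9, 42.5, 28.4 and 35.0 CPM in injured KO, sham KO, injured WT and sham WT. Both genes were thus lower in each injured library than in either sham library. Ndufb4 was at 69.8 CPM in injured KO and 99.9 in sham KO, a ratio of 0.698 (0.647 to 0.754), but at 84.3 in injured WT and 83.4 in sham WT. Ndufc1 also parted between the pairs, with 60.2 CPM in injured KO against 76.8 in sham KO and 90.3 CPM in injured WT against 62.8 in sham WT. Ndufb6, a membrane-arm subunit, was at 44.1 CPM in injured KO and 63.4 in injured WT, a ratio of 0.696 (0.642 to 0.754).

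Complex II, succinate dehydrogenase, is the only complex with no mitochondrially encoded subunit and also works in the TCA cycle. Its catalytic flavoprotein, Sdha, parted from the other subunits. Sdha was at 89.2 CPM in injured KO, 107 in sham KO, 86.6 in injured WT and 100 in sham WT, so both injured libraries were below both sham libraries, by ratios of 0.832 (0.775 to 0.893) and 0.866 (0.801 to 0.937). Sdhb, the iron-sulphur subunit, was at 120, 96.1, 124 and 80.5 CPM in the same order, with an interval of 1.16 to 1.34 in the KO pair and a ratio of 1.54 (1.42 to 1.67) in the WT pair. The membrane anchors followed Sdhb: Sdhc had ratios of 1.05 and 1.34 and Sdhd of 1.12 and 1.45 in the KO and WT pairs. Sdhb is not among the 15 because the 10 CPM added on the log2 scale brought it to 0.57, just inside 1.5-fold.

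In complex III, cytochrome bc1, the hinge protein gene Uqcrh was by far the most abundant. Uqcrh was at 442 CPM in injured KO, 309 in sham KO, 477 in injured WT and 324 in sham WT microglia. The ratios were close in both pairs, at 1.43 (1.38 to 1.49) and 1.47 (1.41 to 1.54). Uqcrfs1, which encodes the Rieske iron-sulphur protein, was at 99.6, 71.3, 111 and 62.9 CPM, and its ratio was 1.40 (1.29 to 1.51) in the KO pair and 1.77 (1.62 to 1.94) in the WT pair. Both injured libraries were above both sham libraries for these genes. The small subunit gene Uqcr10 was instead high in injured WT alone, with 94.3, 90.6, 137 and 87.3 CPM, and Uqcr11 was low in injured KO, with 116, 147, 150 and 126 CPM. Of the core proteins, which face the matrix, Uqcrc2 was at 95.1, 89.8, 92.0 and 83.6 CPM and Uqcrc1 at 82.2, 94.8, 97.4 and 82.8 CPM. The Uqcrc1 ratio was 0.867 (0.804 to 0.935) in the KO pair and 1.18 (1.08 to 1.28) in the WT pair. Uqcrb, the ubiquinone-binding protein, was at 154, 156, 187 and 148 CPM.

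Complex IV, cytochrome c oxidase, held the most abundant member. Cox4i1, the main isoform of the regulatory subunit 4 (chromosome 8, 120668222 to 120674207, plus strand), was at 923 CPM in injured KO and 537 in sham KO microglia, a ratio of 1.72 (1.67 to 1.77). It was at 1016 CPM in injured WT and 519 in sham WT, a ratio of 1.96 (1.90 to 2.02). Cox5a, a nuclear subunit on the matrix side, was at 195, 130, 251 and 122 CPM in injured KO, sham KO, injured WT and sham WT, with an interval of 1.41 to 1.59 in the KO pair and a ratio of 2.05 (1.93 to 2.19) in the WT pair. For both genes the injured libraries stood clear of the sham libraries, and injured WT was the highest.

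Cox7a2l, which encodes a factor that joins complexes III and IV into supercomplexes, broke the order between the labels. It was at 588 CPM in injured KO, 394 in sham KO, 528 in injured WT and 386 in sham WT microglia. Injured KO was the highest library, at 1.11 (1.09 to 1.14) of injured WT. By contrast, 71 of 77 members had their lower value in injured KO in that comparison, as did 1715 of 5430 genes. There the members' median log2 ratio was -0.19 beside 0.09 over all genes. Among the other abundant subunits, Cox8a was at 468, 434, 557 and 444 CPM. Cox7c was at 250, 302, 315 and 271 CPM and Cox7a2 at 146, 179, 177 and 162 CPM. Cox6c was at 217, 239, 303 and 220 CPM. In Cox7c, Cox7a2 and Cox6c, and in Ndufa4 with 210, 232, 248 and 205 CPM and Cox6b1 with 207, 227, 267 and 214 CPM, injured KO lay below or near the sham libraries while injured WT lay at or near the top.

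The largest ratio among the tested members in both pairs belonged to Cox6a2, the isoform of subunit 6A that is typical of heart and skeletal muscle. It reached 20 CPM only in the injured libraries, so its first place among the tested members depends partly on that filter. Cox6a2 was at 28.4 CPM (634 UMIs) in injured KO and 6.84 CPM (80 UMIs) in sham KO microglia, a ratio of 4.15 (3.29 to 5.31). It was at 29.7 CPM (750 UMIs) in injured WT and 9.08 CPM (81 UMIs) in sham WT, a ratio of 3.27 (2.60 to 4.17). The injured libraries did not differ beyond counting error, with a ratio of 0.956 (0.859 to 1.06). The ubiquitous isoform, Cox6a1, had far higher levels and far smaller ratios, with 153, 148, 175 and 145 CPM in injured KO, sham KO, injured WT and sham WT.

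Cox6a2 was spread over many cells. At least 1 UMI was found in 397 of 2216 injured KO (17.9%), 50 of 1201 sham KO (4.16%), 447 of 2096 injured WT (21.3%) and 60 of 787 sham WT microglia-gated cells (7.62%). The median depths of these libraries lay between 8409 and 9647 UMIs per cell. In endothelial-gated cells, with a median of 4318 UMIs in injured KO and 4449 in injured WT, 2 of 125 injured KO and 4 of 78 injured WT cells held a UMI. Monocyte-derived macrophage-gated cells with a UMI numbered 7 of 54 in injured KO (13.0%) and 41 of 384 in injured WT (10.7%). For border-associated macrophages these numbers were 0 of 43 and 6 of 63 (9.52%), so the gene was not limited to microglia. The gene lies on the minus strand of chromosome 7 at 128205435 to 128206387, inside the span of Itgad on the plus strand, and the labels do not say whether counting used strand. Itgad itself was counted at 2 or 3 UMIs per library. Itgax, the CD11c gene 54777 bases away on the same arm, had 35.8 CPM in injured KO, 7.10 in sham KO, 24.3 in injured WT and 6.05 in sham WT, whereas the neighbouring Itgam, the CD11b gene, had 409, 576, 313 and 608 CPM.

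The other tissue-restricted isoforms were close to absent from microglia. Cox6b2, Cox7a1, Cox4i2, Ndufa4l2 and Cox8b all stayed under 20 CPM and were not tested. Ndufa4l2 had more UMIs in vascular than in microglia-gated cells of each library, and Cox4i2 in the KO libraries only, but these classes differ widely in cell number. Endothelial-gated cells with a Cox4i2 UMI made up 4.00% in injured KO, 12.8% in sham KO, 3.85% in injured WT and 3.57% in sham WT. For microglia-gated cells the shares were lower in each library, at 0.451%, 0.0833%, 0.429% and 0.508%. In injured KO, the 5 mural-gated cells held 7 Cox4i2 and 23 Ndufa4l2 UMIs, and the 125 endothelial-gated cells held 8 and 44. The 2216 microglia-gated cells of that library held 11 and 2. In endothelial-gated cells Cox4i2 had 11 UMIs in sham KO, 4 in injured WT and 1 in sham WT, where microglia-gated cells held 1, 9 and 4. Cox8b held 309 UMIs over all barcodes of the 4 matrices, few of them in gated cells, where 1 endothelial-gated cell of sham KO held 30 UMIs. Cox7a1, another muscle isoform, had 7 UMIs in injured KO, 8 in sham KO, 46 in injured WT and 4 in sham WT microglia.

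In complex V, the ATP synthase, 11 of 17 members lay above 0 in the KO pair, with a median log2 ratio of 0.16, and 17 of 17 in the WT pair, with a median of 0.45. All tested members of complex III (8) and complex IV (13) also lay above 0 in the WT pair. Over all genes, 1729 of 6162 lay above 0 in the KO pair and 1917 of 6291 in the WT pair. The most abundant member of complex V was Atp5g2, 1 of 3 genes that encode the same proton-carrying c subunit (chromosome 15, 102662864 to 102672352, minus strand). Atp5g2 was at 535 CPM in injured KO, 317 in sham KO, 550 in injured WT and 300 in sham WT, with ratios of 1.69 (1.63 to 1.75) and 1.83 (1.76 to 1.91). The other c subunit genes had smaller ratios: Atp5g1 was at 151, 135, 168 and 119 CPM and Atp5g3 at 107, 85.9, 125 and 83.2 CPM. Injured libraries were above sham for each of the 3 genes.

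Within the catalytic head, Atp5c1, the rotating gamma subunit, was at 265 CPM in injured KO, 180 in sham KO, 275 in injured WT and 175 in sham WT. Atp5a1 and Atp5b, the alpha and beta subunits of the same head, had smaller ratios, with 234, 254, 243 and 228 CPM for Atp5a1 and 294, 282, 299 and 260 CPM for Atp5b. Atp5a1 had 0.923 (0.882 to 0.966) in the KO pair and 1.07 (1.01 to 1.12) in the WT pair. Atp5o, the stalk protein OSCP, was at 131, 98.2, 153 and 91.0 CPM, with 1.33 (1.24 to 1.43) and 1.68 (1.56 to 1.82) in the KO and WT pairs. The catalytic subunits and their partners in the same enzyme therefore did not share 1 ratio. Atp5e, the epsilon subunit, was at 271, 301, 358 and 279 CPM. Atp5md, a small membrane subunit linked to dimers of the enzyme, was at 77.6 CPM in injured KO and 115 in sham KO, a ratio of 0.673 (0.626 to 0.723), but at 101 in injured WT and 88.7 in sham WT. Atp5k, another small membrane subunit, was at 82.6, 98.4, 106 and 84.1 CPM.

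**Figure D3:**
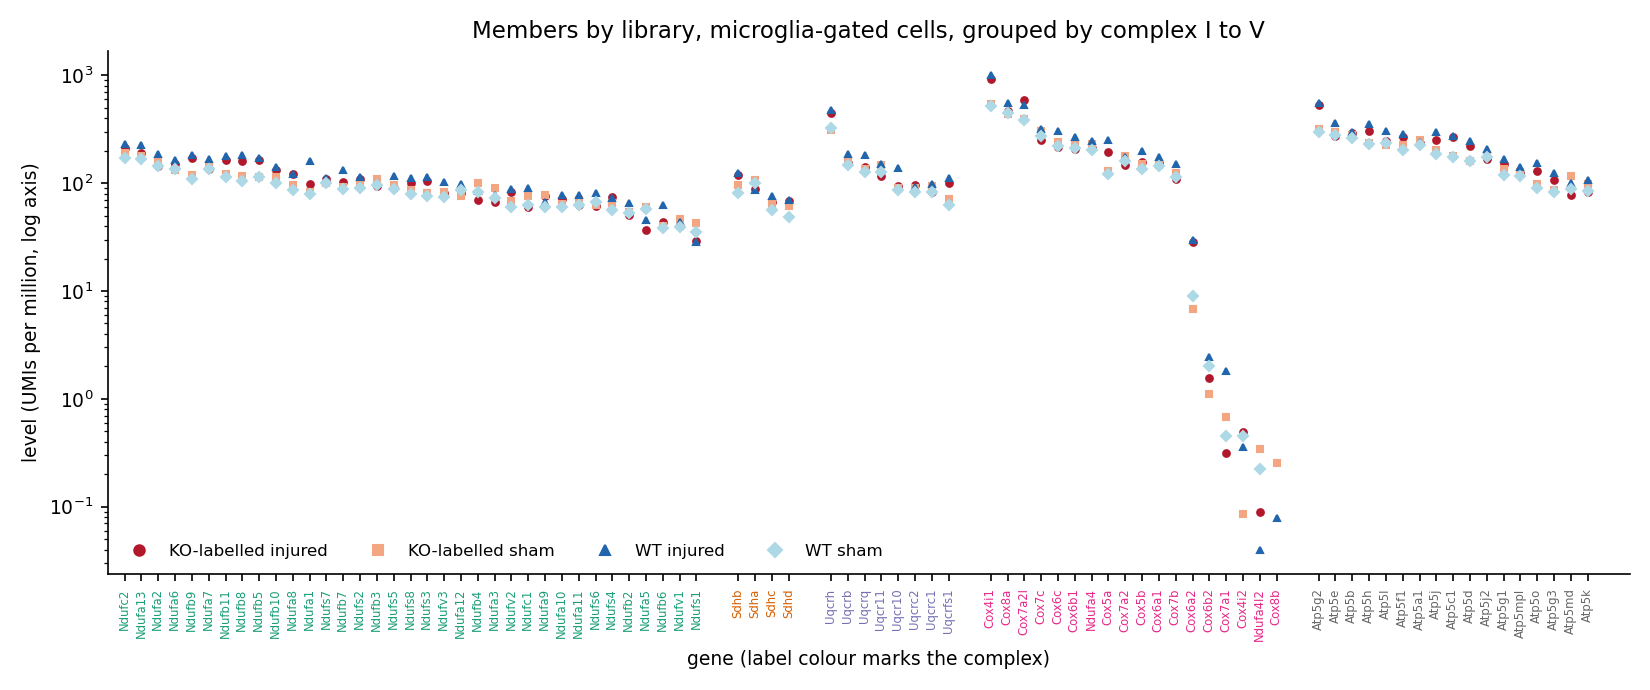
Level of each of the 82 members, in CPM on a log axis, in microglia-gated cells of the 4 libraries; genes are ordered within complexes I to V by mean level, and values of 0 are not drawn. Most members lie between about 30 and 600 CPM, Cox4i1 is the highest in every library (923, 537, 1016 and 519 CPM in injured KO, sham KO, injured WT and sham WT), and 6 tissue-restricted isoforms of complex IV form the tail.

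Transcript length, which the choice of genes did not use, went with the size of the gap between the labels. In injured KO over injured WT, all 29 members with a median protein-coding transcript length under 600 bases (GENCODE vM21) lay below 0, with a median log2 ratio of -0.30. The median was -0.14 for the 29 members of 600 to 1000 bases and -0.05 for the 16 of 1000 to 2000 bases, while the 3 members above 2000 bases had a median of -0.14. Members below 0 numbered 27, 12 and 3 in these longer classes, so among members the direction was not limited to short transcripts. Over all genes, 141 of 250 lay below 0 under 600 bases. In the longer classes 462 of 1027, 555 of 1564 and 540 of 2511 genes did. Spearman's rho between length and log2 ratio was 0.60 over the 77 members, and over the 5352 genes with a length it was 0.29, with a median log2 ratio of -0.05 for the 250 genes under 600 bases. Length also went with the injury ratios of genes at large: in the WT pair the median log2 ratio of all genes was 0.03 under 600 bases, 0.06 at 600 to 1000 bases and -0.54 above 2000 bases, where that of the members was 0.31 and 0.49 under 600 and at 600 to 1000 bases. In the KO pair the members of these same classes had medians of -0.08 and 0.19, beside -0.14 and -0.03 for all genes. The members' transcripts are short, with a median of 659 bases against 2009 for all genes tested in the WT pair, and the part of length in the ratios was not tested.

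Promoter sequence was set beside these levels because the members come from all over the genome and lay above 0 together in the WT pair. RefSeq promoters (GRCm38.p6) were found for 66 of 82 members, 5 of them with a second start, and the 250 bases before the start were searched on both strands. The NRF1 core (GCGCA, any base, then GCGC) was present in 13 of 66 members (19.7%), against 4.23% of 27025 genes, and the GABPA (ETS) core CCGGAAG in 12 of 66 (18.2%), against 7.83%. Both factors are known activators of respiratory chain genes. The YY1 core AAGATGGC was present in 1.52% of members and 1.83% of all genes, the ESRRA core TCAAGGTCA in 1.52% and 0.422%, the CREB core TGACGTCA in 6.06% and 1.77%, the SP1 core GGGCGG in 34.8% and 35.4%, and the NFY core CCAAT in 43.9% and 37.5%. The GGGCGG and CCGGAAG searches can share bases where sites adjoin. In the WT pair the median log2 ratio was 0.31 for the 13 tested members with the NRF1 core and 0.41 for the 50 without, and 0.50 for the 12 with the GABPA core and 0.38 for the 51 without. A match describes letters and not binding. For each complex, the stretch around these matches is printed for the member with the highest WT ratio among those holding an NRF1, GABPA or YY1 core, with the matched bases in capitals (CTTCCGG is CCGGAAG on the other strand) and all on the minus strand:
Ndufb6 (complex I), chr4:40279622-40279671: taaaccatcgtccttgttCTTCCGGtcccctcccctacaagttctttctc
Sdhd (complex II), chr9:50603864-50603953: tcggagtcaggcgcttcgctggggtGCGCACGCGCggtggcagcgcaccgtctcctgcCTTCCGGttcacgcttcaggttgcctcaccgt
Uqcrh (complex III), chr4:116075071-116075105: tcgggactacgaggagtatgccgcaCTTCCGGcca
Cox6b1 (complex IV), chr7:30626115-30626167: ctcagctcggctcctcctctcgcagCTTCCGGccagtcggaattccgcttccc
Atp5g2 (complex V), chr15:102671055-102671114: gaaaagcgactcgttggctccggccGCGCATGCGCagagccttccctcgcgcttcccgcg
Of the stretches printed, that of Sdhd holds both an NRF1 and a GABPA core, and the Atp5g2 site reads as the NRF1 core on both strands.

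The mitochondrially encoded subunits went the same way as the nuclear ones in the KO pair and the other way in the WT pair. The 13 mt- protein-coding genes summed to 46455 CPM in injured KO and 44146 in sham KO microglia, a ratio of 1.05 (1.05 to 1.06). They summed to 41224 CPM in injured WT and 46848 in sham WT, a ratio of 0.880 (0.877 to 0.883), which became 1.29 after median-of-ratios scaling and 0.520 without the mt- limit. Nuclear UMIs per mt- UMI therefore stood at 0.269 in injured KO and 0.251 in sham KO, a ratio of 1.07, and at 0.347 in injured WT and 0.221 in sham WT, a ratio of 1.57. This ratio needs no scaling between libraries. It stayed above 1 in both pairs under all alternatives tried, over 1.01 to 1.09 in the KO pair and 1.38 to 2.27 in the WT pair, but cells were limited by their mt- share and the sham WT library lost the most barcodes to that limit.

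Single mt- genes differed from each other. mt-Co1, the catalytic core of complex IV, was at 5811 CPM in injured KO, 4913 in sham KO, 5235 in injured WT and 4781 in sham WT, higher in both injured libraries. mt-Nd3, a small complex I subunit, was at 668, 1485, 639 and 1455 CPM, with ratios of 0.450 in the KO pair and 0.439 in the WT pair. mt-Nd4l was at 72.0, 170, 61.7 and 175 CPM and mt-Atp8 at 28.4, 67.1, 23.3 and 76.4 CPM. These 3 short genes were the mt- genes that were at least 2-fold lower in injured than in sham in both pairs, and at that threshold 1.72% of all genes were lower in the KO pair and 9.82% in the WT pair. Neighbours on the same mitochondrial precursor overlap (mt-Nd4l with mt-Nd4 and mt-Atp8 with mt-Atp6), so the counts of these neighbours are uncertain.

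Genes around the respiratory chain gave a mixed frame, and their lists were chosen with earlier results of these data known. Of 15 glycolysis genes tested, 9 were at least 1.5-fold higher in injured KO than sham KO and 0 lower, and 9 were higher and 2 lower in injured WT than sham WT. For these and the lists that follow, the shares over all genes are those given above, 5.73% higher and 13.1% lower in the KO pair and 8.77% and 31.7% in the WT pair. Gapdh was at 1269 CPM in injured KO, 720 in sham KO, 1372 in injured WT and 668 in sham WT, and Aldoa, aldolase, at 455, 304, 499 and 262 CPM. Both were higher in the injured libraries. Pkm, pyruvate kinase, was at 477, 249, 549 and 217 CPM. Pgk1, phosphoglycerate kinase, had the largest gap, with 174, 77.0, 187 and 68.8 CPM and ratios of 2.26 and 2.72. Hk2, hexokinase 2, was lower in both injured libraries, with 204, 292, 148 and 357 CPM. The glycolysis medians, 0.63 and 0.73, were larger than those of the oxidative phosphorylation genes in both pairs.

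The TCA cycle and pyruvate dehydrogenase genes stayed near 0, with medians of -0.13 over 17 genes in the KO pair and -0.06 over 16 in the WT pair. Of these, 1 gene was at least 1.5-fold lower in each pair and 0 were higher. That gene was Idh2, mitochondrial isocitrate dehydrogenase, at 62.3 CPM in injured KO, 110 in sham KO, 56.9 in injured WT and 96.8 in sham WT. The abundant Mdh2, malate dehydrogenase, was at 117, 103, 122 and 96.2 CPM, and Idh3g at 81.7, 100, 77.9 and 90.8 CPM. The regulators of mitochondrial biogenesis lay below 0, 6 of 6 tested in the KO pair and 7 of 7 in the WT pair, with medians of -0.38 and -0.67, and 0 and 4 of them were at least 1.5-fold lower. Most genes lay below 0 too, 4433 of 6162 in the KO pair and 4374 of 6291 in the WT pair. Yy1, a general activator, was at 71.6, 98.5, 64.3 and 118 CPM, and Nrf1 at 22.2, 33.8, 17.5 and 33.8 CPM in the same order. Esrra, the estrogen-related receptor that activates respiratory genes, was at 27.4, 37.2, 25.3 and 35.5 CPM, and Ppargc1a, its coactivator, stayed below 1.4 CPM in each library.

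Assembly factors had medians of -0.08 and 0.15 over 21 genes and 0 called in either direction in both pairs. Cox17, the copper chaperone of complex IV, was at 83.6, 108, 89.9 and 96.0 CPM in injured KO, sham KO, injured WT and sham WT. Coa3 was at 83.7, 69.4, 85.7 and 63.9 CPM, and Cox20, another complex IV factor, at 26.4, 41.7, 36.7 and 38.7 CPM. Among the carriers and subunits outside the symbol rule, Cycs, cytochrome c, was lower in both injured libraries, with 72.2, 94.3, 75.7 and 94.4 CPM. Atpif1, the inhibitor of ATP hydrolysis by complex V, was at 160, 188, 191 and 175 CPM, Etfb at 79.2, 76.1, 95.2 and 66.8 CPM, Cyc1 at 75.9, 84.1, 80.6 and 70.7 CPM, and Ndufab1, the mitochondrial acyl carrier protein, at 107, 91.9, 120 and 85.7 CPM.

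The antioxidant and uncoupling genes resembled the subunits in order, with medians of 0.29 and 0.55 over 7 genes, 1 and 3 of which were at least 1.5-fold higher in the KO and WT pairs. Ucp2, an inner membrane carrier of the uncoupling family, was at 471 CPM in injured KO, 362 in sham KO, 639 in injured WT and 337 in sham WT. Gpx4, which removes lipid peroxides, was at 391, 278, 485 and 239 CPM, and Prdx5, a peroxiredoxin, at 321, 191, 355 and 197 CPM. Mitochondrial ribosomal protein genes had medians of 0.12 over 65 and 0.30 over 66 genes, cytosolic ribosomal protein genes 0.37 and 0.29 over 79, and proteasome genes 0.09 over 37 and 0.20 over 36. Of these 3 lists, 2, 19 and 2 genes were at least 1.5-fold higher and 2, 0 and 0 lower in the KO pair, and 7, 10 and 5 higher and 1, 1 and 0 lower in the WT pair. The most abundant were Mrps33 (115, 110, 128 and 103 CPM), Mrpl52 (107, 169, 111 and 159 CPM), Rplp1 (3150, 4460, 3233 and 4867 CPM), Rps29 (3429, 4363, 3174 and 3904 CPM), Psmb8 (319, 193, 297 and 172 CPM) and Psmb1 (240, 166, 242 and 151 CPM). The log2 ratios farthest from 0 in these lists belonged to Mrps6, which was lower after injury (27.0, 62.0, 23.1 and 103 CPM), and to Rpl10a (1932, 863, 1849 and 880 CPM) and Psmb6 (194, 118, 250 and 114 CPM), which were higher. The chaperone and immediate early list, which dissociation is known to raise, was lower after injury, with medians of -0.84 and -1.37 over 11 genes and 6 at least 1.5-fold lower in each pair. Jun was at 2292, 4674, 1644 and 4631 CPM, Junb at 3202, 3517, 2587 and 3730 CPM and Hspa1b at 12.2, 189, 12.4 and 145 CPM. The part of handling in the oxidative phosphorylation ratios was not tested.

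Markers of other cell types moved with the same groups within the microglia gate. The 10 monocyte-derived macrophage markers summed to 2015 CPM in injured KO, 393 in sham KO, 6422 in injured WT and 695 in sham WT, none of them at 0, and Lyz2 made up 1673, 319, 5367 and 550 CPM of these. With a gate margin of 0.3 in place of 0.1, the summed oxidative phosphorylation ratio was 1.12 in the KO pair and 1.36 in the WT pair. The 10 neutrophil markers summed to 193 CPM in injured KO, 214 in sham KO, 182 in injured WT and 1015 in sham WT, with 4, 3, 1 and 0 of them at 0, and S100a8 at 4.66, 1.54, 15.7 and 315 CPM, so sham WT stood apart. The 12 neural markers summed to 232, 443, 153 and 423 CPM, and Snap25, a neuronal marker, was at 5.47 and 72.9 CPM in injured and sham KO and at 2.61 and 63.4 CPM in injured and sham WT. The 10 microglia markers summed to 15937, 22565, 12384 and 19597 CPM, with P2ry12 at 1152, 2559, 635 and 2244 CPM. Without cells holding at least 3 G2/M genes the ratios were 1.11 and 1.35, and without barcodes shared between libraries 1.10 and 1.34. The part of these markers was not tested further.

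The level of the members also varied with the mt- share of a cell. Below the limit of 10%, the order of the libraries was the same in the bins up to 7.5%: at 2.5% to 5% the members summed to 12539 CPM in injured KO, 11084 in sham KO, 14345 in injured WT and 10131 in sham WT. Between 7.5% and 10% they summed to 12207, 10766, 12582 and 11344 CPM. Above the limit the order broke up. At 10% to 20% they summed to 9720, 18642, 7793 and 12796 CPM, with sham KO the highest (185 barcodes, neural markers at 862 CPM). At 20% to 40% the sham WT library held 1082 microglia-gated barcodes with a median of 1558 UMIs, where the members summed to 19720 CPM and the neural markers to 3537 CPM, against 5471 and 1405 CPM in injured KO, 7338 and 2252 CPM in sham KO, and 6641 and 478 CPM in injured WT. Above 40% sham KO held 7 such barcodes, with neural markers at 8273 CPM. Without any limit the summed ratio was 1.07 in the KO pair and 1.18 in the WT pair, and sham KO over sham WT turned to 0.959.

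**Figure D4:**
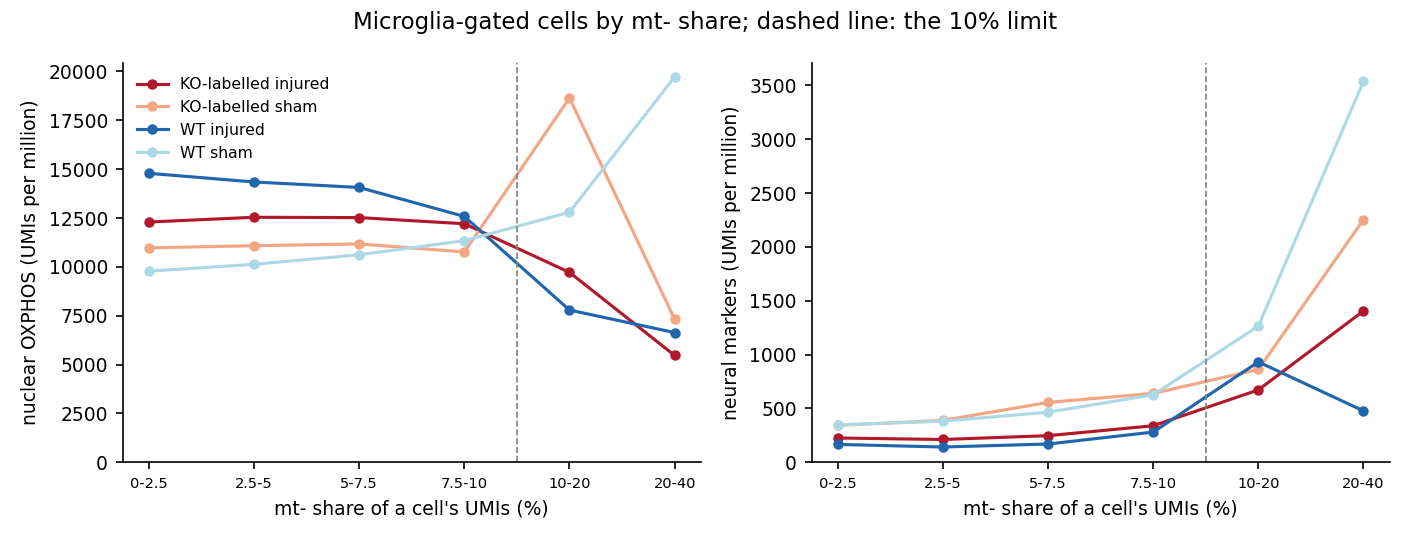
Microglia-gated cells binned by the mt- share of their UMIs (horizontal, %): summed nuclear oxidative phosphorylation level (left) and summed level of 12 neural markers (right), in CPM, with 1 line per library and a dashed line at the 10% limit. Below the limit injured WT is highest, while above it sham KO reaches 18642 CPM at 10% to 20% and sham WT 19720 CPM at 20% to 40% on the left, where its neural markers reach 3537 CPM on the right.

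Both macrophage classes and endothelial cells had higher levels than microglia in the sham libraries, and these gaps were smaller in the injured ones. Only border-associated macrophages reached 50 cells in both sham libraries, so the sham levels of the other classes rest on few cells. Border-associated macrophage-gated cells stood at 12770 CPM (43 cells) in injured KO and 15270 CPM (50 cells) in sham KO, which is 1.02 (0.991 to 1.05) and 1.38 (1.34 to 1.42) of the microglia of the same library. They stood at 14635 CPM (63 cells) in injured WT and 14402 CPM (61 cells) in sham WT, or 1.02 (1.00 to 1.05) and 1.39 (1.36 to 1.43) of microglia. Their own injured over sham ratios were 0.836 (0.802 to 0.872) and 1.02 (0.983 to 1.05), so the higher summed level after injury seen in microglia was not seen in these macrophages in either pair. The KO ratio rests on 43 injured cells, under the mark of 50. Single cells overlapped there, with 25th to 75th percentiles of 1.00% to 1.61% in injured KO and 1.15% to 2.08% in sham KO. Without mt- and ribosomal protein UMIs in the denominator, they were above microglia in 2 of 4 libraries instead of 4.

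Monocyte-derived macrophage-gated cells were close to microglia in the injured libraries, at 13131 CPM (54 cells) in injured KO and 15042 CPM (384 cells) in injured WT, each 1.05 of microglia. Of these cells, 29 in injured KO and 176 in injured WT lay near the gate's limit, and the median cell held 4 markers of its best other class. Injured KO over injured WT was 0.873 (0.854 to 0.892) in these cells, 0.873 (0.840 to 0.906) in border-associated macrophages and 0.874 in microglia. The sham libraries held only 8 and 11 monocyte-derived macrophages, at 18491 CPM in sham KO and 16196 CPM in sham WT. Endothelial-gated cells were higher than microglia in all 4 libraries, at 16567 CPM (125 cells) in injured KO, 21604 CPM (47 cells) in sham KO, 16974 CPM (78 cells) in injured WT and 17035 CPM (28 cells) in sham WT. Their injured KO and injured WT levels gave a ratio of 0.976 (0.950 to 1.00). Neural-gated cells, 12 to 20 per library, were higher still, at 20900 to 28345 CPM, and neutrophil-gated cells, 6 to 31 per library, lower than microglia in each library, at 8632 to 11214 CPM. Neutrophils are known to rely on glycolysis, and their mt- genes were also low, at 13613 to 31064 CPM.

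**Figure D5:**
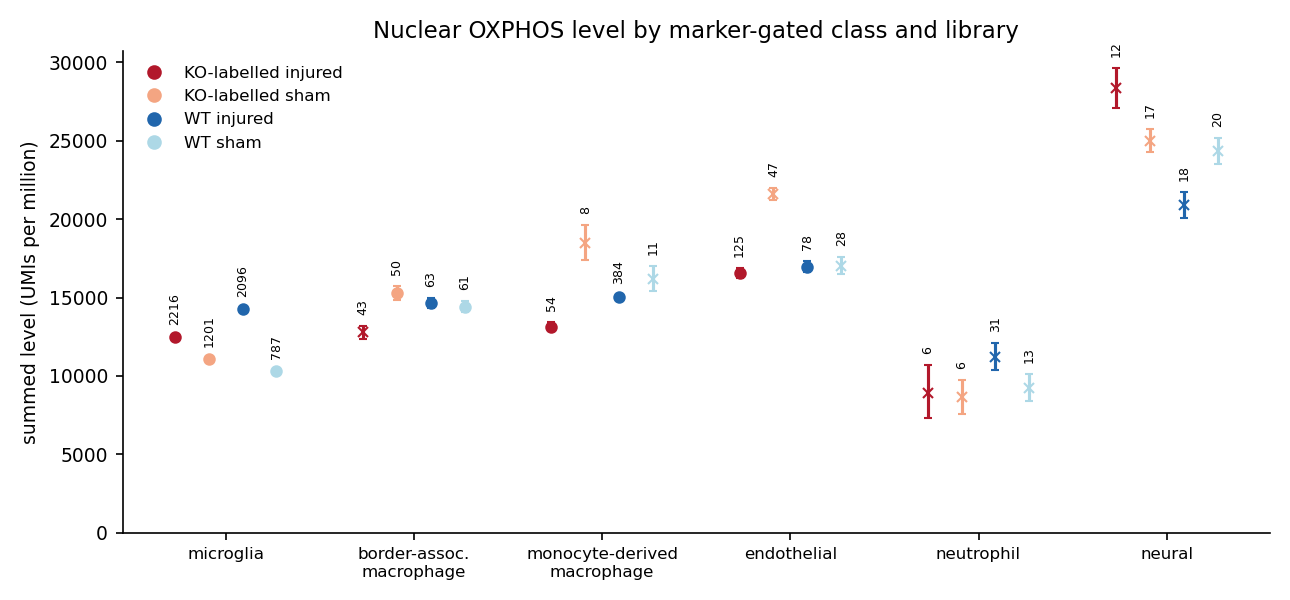
Summed nuclear oxidative phosphorylation level, in CPM, by marker-gated class and library; points are single libraries with exact 95% Poisson intervals, numbers are cells, and crosses mark classes with under 50 cells. Microglia-gated cells are the lowest of the macrophage and endothelial classes in both sham libraries (11077 CPM in sham KO and 10337 CPM in sham WT) and nearly level with both macrophage classes in the injured ones.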

How the data were processed

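The deposited values are raw UMI counts of genes by cell barcodes. The submitters' processing notes name Cell Ranger (6.0.1) and the mm10 build, and say nothing further on strand, annotation or multi-mapped reads. Counts of genes with close paralogues or processed pseudogenes are therefore uncertain. Barcodes with at least 500 genes, 1000 UMIs and at most 10% mt- UMIs were kept. The highest Scrublet scores (scanpy 1.11.5) were removed at 0.8% per 1000 barcodes. A cell took the class with the largest share of markers detected (at least 3, and 0.1 above the next class). Counts were summed per class and library and divided by their total (CPM). Levels carry exact Poisson and ratios exact conditional binomial intervals at 95% (scipy 1.17.1). Log2 ratios used a prior of 10 CPM. Genes needed 50 UMIs in all and 20 CPM in 1 of the 2 libraries compared, and counted as higher or lower at 1.5-fold. The calculation was tested on simulated counts with known ratios. Named genes are the 2 most abundant and the 2 highest and lowest of each complex per injury comparison, and paralogue pairs. The 5 members with the log2 ratio farthest from 0 in injured KO over injured WT are also named. Of other lists the 2 most abundant genes and the most different are named. Positions are from GENCODE vM21. Members, gene lists and motifs were chosen with earlier results of these data known. Alternatives (filters, gate, weights, denominator, scaling, thresholds) are given in the closing section. Single libraries per group allow no test, so no p-value is given.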

Additional observations from a re-analysis of the deposited data

Results flagged for a closer look

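The mt- genes and a group of nuclear subunits parted in direction between the library pairs; this difference was not tested, since each group is 1 library. The summed mt- ratio of injured over sham was 1.05 in the KO pair and 0.880 in the WT pair. Among nuclear members, 17 had a ratio interval wholly below 1 in the KO pair and wholly above 1 in the WT pair: 4 of complex I, 2 of complex III, 6 of complex IV and 5 of complex V. That is 22.1% of 77 members, against 1.27% of 5991 genes tested in both pairs. The lowest KO ratios of these were 0.673 for Atp5md, 0.784 for Ndufc1 and 0.788 for Uqcr11, against 1.13, 1.44 and 1.19 in the WT pair.

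Ndufb1-ps, a complex I gene by symbol that was left out for its pseudogene name, held 15900 UMIs over the 4 matrices and so carried a signal that no sum above includes. It was at 138 CPM in injured KO, 156 in sham KO, 158 in injured WT and 122 in sham WT microglia-gated cells, with ratios of 0.886 (0.836 to 0.940) in the KO pair and 1.29 (1.21 to 1.38) in the WT pair.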

How the results depend on the processing

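No paired analysis was possible because each group holds 1 library, and for the same reason no replicate could be left out. Depth limits genes below 20 CPM, and the mt- limit decides which sham WT cells are read. The cause of the shifts below was not tested. Values follow the order WT pair (summed ratio 1.38; nuclear per mt- UMI 1.57), KO pair (1.13; 1.07), injured KO over injured WT (0.874; 0.776) and sham KO over sham WT (1.07; 1.14). With an mt- limit of 5% the summed ratio was 1.43 in the WT pair, 0.868 for the injured and 1.10 for the sham libraries, and per mt- UMI 1.44, 1.09, 0.846 and 1.13 in the stated order. With 20% the summed ratio was 1.35, 1.08 and 1.09 in the WT pair, KO pair and sham libraries, and per mt- UMI 1.70, 1.08 and 1.21. With no limit the summed ratio was 1.18 and 1.07 in the WT and KO pairs and turned to 0.959 for sham KO over sham WT, and per mt- UMI it was 2.27, 1.01, 0.735 and 1.66. The summed mt- ratio of the WT pair was then 0.520. Ndufb9 then turned to a log2 ratio of -0.050 in the WT pair, and 2 of 5 complexes instead of 5 were higher in sham KO than in sham WT. A gate margin of 0.3 gave 1.36 in the WT pair and 0.889 for the injured libraries, and per mt- UMI 1.55, 1.06, 0.786 and 1.15. Requiring 5 own markers gave 1.06 per mt- UMI in the KO pair, and 1000 genes with 2000 UMIs gave 1.06 there and a summed ratio of 0.869 for the injured libraries. Equal weights per cell gave 1.27, 1.09, 0.909 and 1.06, and per mt- UMI 1.53, 1.09 and 0.816 without the sham libraries, with 1 complex instead of 0 higher in injured KO than in injured WT. A denominator without mt- and ribosomal protein UMIs gave 1.41, 1.17 and 0.884, and border-associated macrophages above microglia in 2 libraries instead of 4. Median-of-ratios scaling gave 2.03, 1.45, 0.788 and 1.10, and turned the summed mt- ratio of the WT pair to 1.29. Without cells holding at least 3 G2/M genes the ratios were 1.35, 1.11 and 0.880. Chosen after seeing the data, leaving out shared barcodes gave 1.34 and 1.10 in the WT and KO pairs and 1.06 for the sham libraries, and sham KO in place of sham WT gave 1.29, and 1.38 per mt- UMI. The 15 members at least 1.5-fold higher in the WT pair became 6 with no mt- limit, 7 with equal weights, 70 with median-of-ratios, 9 with sham KO as the sham, 43 at a ratio threshold of 5 to 4 and 1 at 2-fold, and the 0 lower became 1 with no limit. The 3 higher in the KO pair became 5 with the 5% limit, 6 with the other denominator, 20 with median-of-ratios, 16 at 5 to 4 and 1 at 2-fold. The 1 lower there became 2 with the 20% limit, with no limit and with equal weights, 0 with the other denominator, median-of-ratios and 2-fold, and 5 at 5 to 4. The 1 lower in injured KO than in injured WT became 0 with the wider margin, equal weights and 2-fold, 4 with median-of-ratios and 18 at 5 to 4. The 0 higher in sham KO than in sham WT became 1 at 5 to 4.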
